A study of Mus musculus with 24 samples.

Results

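The mitochondrial ribosomal protein genes are the nuclear genes for the protein subunits of the ribosome inside mitochondria. They were taken as the probes whose gene name in the scanner files began with Mrpl or Mrps followed by a number, and where a gene had several, its brightest probe was used. This gave 75 genes of the 27745 gene names on the array, and all 75 were among the 16315 genes tested. By their present assignment, 48 belong to the large subunit, among them Mrps18a and Mrps30 in spite of their names, and 26 to the small subunit. Mrps36, the remaining gene, carries a subunit name but its product has been assigned to the oxoglutarate dehydrogenase complex. The cells were N1E-115, a neuroblastoma line of mouse used to study neurons, and their RNA was read on 12 Agilent arrays with 2 dyes. The TO line was transfected with a chimera that has transcobalamin, the cobalamin carrier encoded by Tcn2, at its N-terminus, joined to oleosin, and this protein binds cobalamin (Cbl) with high affinity. In the OT line transcobalamin forms the C-terminal part, and no Cbl binding was detectable. The WT line was not transfected. Each line was grown in differentiation medium (d), with 2.5% fetal calf serum and 1.25% DMSO, and in proliferation medium (p), with 10% serum, which made the groups TO-d, TO-p, OT-d, OT-p, WT-d and WT-p with 4 samples each, 24 in all. The labels do not say whether TO and OT were each 1 clone or whether the 4 samples came from separate cultures, so each p-value reflects no more than the scatter of these samples, which may be technical.

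The mitochondrial ribosome translates the few messages encoded by mitochondrial DNA, all of which specify subunits of the respiratory chain and the ATP synthase. Its proteins are made in the cytosol and imported, and about as many are specific to mitochondria as descend from the bacterial ribosome. In neurons, which depend on oxidative phosphorylation, loss of these proteins impairs assembly of the respiratory chain, and nuclear factors such as NRF1, the ETS factor GABP and YY1 are known activators of genes for mitochondrial proteins.

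Levels are normalized log2 intensity, in which a step of 1 is a doubling of signal, and changes are fitted log2 fold changes with their standard error (SE). Median raw signals lay between 66.8 and 166 per sample, 54.3 to 65.9% of the spots were well above background and no value was saturated. All 75 genes were well above background in all 6 groups, and 18 of their 1800 values were missing because of an outlier mark. The median SD of a gene within a group of 4 was 0.11. Tcn2 encodes the carrier in both fusions, and its signal was 2.63-fold higher in TO-p than OT-p and 2.12-fold higher than WT-p (limma, adjusted p = 5.06e-11 and 5.98e-09), and 1.32-fold and 1.49-fold higher in TO-d than OT-d and WT-d. In OT, which carries a fusion too, the Tcn2 log2 change was -0.32 in OT-p against WT-p (adjusted p = 0.0052) and 0.17 in OT-d against WT-d (adjusted p = 0.14), so the probe did not mark OT as transfected. Whether the Tcn2 probe reads the transgene was not tested. All 11 sympathoadrenal markers, among them Th, Dbh and Phox2a, were above background in all 6 groups, while Gfap, Aqp4, Mog, Ptprc, Pecam1, Cdh5, Col3a1 and Lum were above it in none.

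The first question was what the change to differentiation medium did to these genes, and most of those that changed fell. In TO 34 of the 75 genes were lower and 5 higher in TO-d than TO-p (limma, with p adjusted by Benjamini-Hochberg over all 16315 genes and called under 0.05), against 26.3% and 26% of all genes tested. In OT 46 were lower and 7 higher, against 31% and 36.5% of all genes. In WT 44 were lower and 7 higher, against 30.9% and 35.6% of all genes. The median change of the 75 genes was -0.14 in TO, -0.34 in OT and -0.31 in WT, beside -0.004, 0.04 and 0.06 for all genes tested. Called in the same direction in all 3 lines were 25 genes, 33.3% of the 75, and every one of these was lower in differentiation medium, while 16.7% of all genes were lower and 17.4% higher in all 3 lines. They were 18 of the 48 large subunit genes and 7 of the 26 small subunit genes. The 75 genes were brighter than most, with a median log2 level of 12.32, against 9.32 for all genes tested. Whether brightness bears on the shares called, here or below, was not tested. With Feature Extraction's own processed signals 13 genes were higher and 39 lower in WT, and with the values of the deposited series table the counts were again 13 and 39 in WT and 9 and 30 in TO. With loess within arrays alone they were 8 and 22 in TO and 0 and 53 in WT. Without TO-p replicate 2, 3 genes were higher in TO. The processed signals put the median of all genes at 0.195 in WT. The median of the 75 genes stayed below that of all genes in each line under these 3 scalings.

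**Figure D1:**
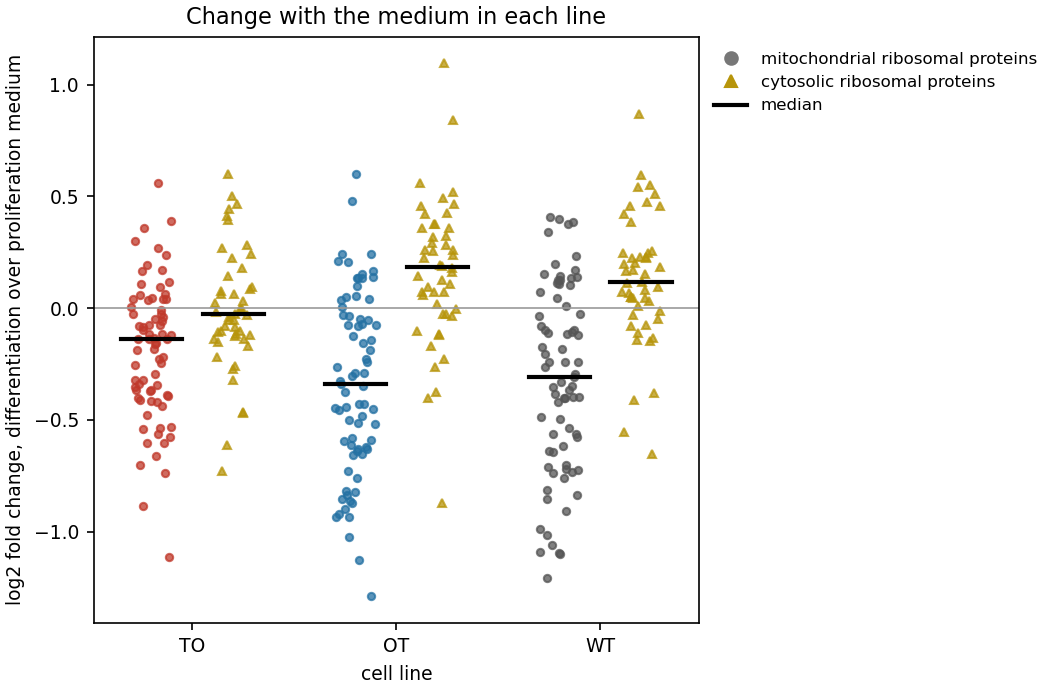
Fitted log2 fold change of differentiation over proliferation medium (y axis) in TO, OT and WT (x axis), with 1 circle for each of the 75 mitochondrial ribosomal protein genes, 1 triangle for each of 48 cytosolic ribosomal protein genes and a black line at each median. The circles lie lower than the triangles in each line, with medians of -0.14, -0.34 and -0.31 in TO, OT and WT.

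The genes of the cytosolic ribosome, which translates nuclear messages, did not share the fall. Of the 48 tested, 9 were higher and 9 lower in TO-d than TO-p, 25 were higher and 6 lower in OT-d than OT-p, and 16 were higher and 4 lower in WT-d than WT-p. Their medians were -0.03, 0.18 and 0.12. Beside these counts, 26% of all genes tested were higher and 26.3% lower in TO, 36.5% and 31% in OT, and 35.6% and 30.9% in WT. The higher count of the cytosolic genes in WT was thus near the share of all genes, and their lower counts were below it in each line. For the mitochondrial genes the ratio of higher to lower counts ran the other way in OT and WT.

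Among large subunit genes with a bacterial counterpart, 0 were higher and 13 of 30 lower in TO-d than TO-p, 1 was higher and 18 lower in OT-d than OT-p, and 4 were higher and 21 lower in WT-d than WT-p. The shares of all genes tested were 26% higher and 26.3% lower in TO, 36.5% and 31% in OT, and 35.6% and 30.9% in WT. Mrpl47 (chr3:32922774-32925165 in mm8, minus strand), which lies beside the exit tunnel of the ribosome, had log2 levels of 10.45, 10.39, 10.32 and 10.26 in TO-d, against 11.48, 11.15, 11.27 and 11.28 in TO-p. It had 10.37, 10.25, 10.27 and 10.24 in OT-d, against 11.68, 11.59, 11.54 and 11.52 in OT-p. In WT-d it had 10.15, 10.26, 10.30 and 10.31, against 11.41, 11.29, 11.47 and 11.15 in WT-p. All 12 samples in differentiation medium were below all 12 in proliferation medium, and the 3 lines came to about the same level in differentiation medium. The fitted change was -0.89 in TO, -1.29 in OT and -1.06 in WT (SE 0.07, 0.07 and 0.08, limma, adjusted p = 3.37e-10, 7.35e-14 and 2.89e-11). A dimmer Mrpl47 probe went the other way in TO, with 0.29, and changed by -0.13 in OT and -0.29 in WT.

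Mrpl18 (chr17:12754404-12754463, minus strand), a protein of the central protuberance, had 12.33, 12.18, 12.18 and 12.23 in TO-d, against 12.66, 12.38, 12.62 and 13.09 in TO-p. It had 12.33, 12.35, 12.26 and 12.41 in OT-d, against 13.51, 13.41, 13.33 and 13.38 in OT-p. The groups did not overlap in either line, and every OT-p sample was above every TO-p sample. It changed by -0.37 in TO, -1.13 in OT and -0.84 in WT, and all 3 probes of Mrpl18 gave nearly the same values. Mrpl19, also with a bacterial counterpart, changed by -0.48, -0.92 and -1.21 in TO, OT and WT, and Mrpl27 by -0.56, -0.58 and -0.82. Mrpl12, whose product forms the stalk of the large subunit and also binds the mitochondrial RNA polymerase, changed by -0.29 in TO (adjusted p = 0.031), -0.82 in OT and -0.91 in WT. The TO value of Mrpl12 was no longer called when TO-p replicate 1, TO-p replicate 4 or TO-d replicate 4 was left out.

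Large subunit genes specific to mitochondria numbered 18, of which 3 were higher and 10 lower in TO, 4 higher and 10 lower in OT, and 2 higher and 8 lower in WT. Over all genes tested the shares were 26% higher and 26.3% lower in TO, 36.5% and 31% in OT, and 35.6% and 30.9% in WT. Mrpl54 (chr10:80667968-80668027, minus strand) had 12.37, 12.28, 12.35 and 12.27 in TO-d, against 13.00, 13.03, 13.11 and 13.31 in TO-p. It had 12.64, 12.61, 11.99 and 12.60 in OT-d, against 13.56, 13.41, 13.42 and 13.36 in OT-p. In WT-d it had 12.30, 11.89, 12.31 and 12.45, against 13.52, 13.22, 13.43 and 13.26 in WT-p. Again all samples in differentiation medium lay below all in proliferation medium, and 1 sample of OT-d and 1 of WT-d were lower still. The changes were -0.74, -0.93 and -1.10 in TO, OT and WT (SE 0.11, 0.10 and 0.11). Mrpl40, a protein of the central protuberance, changed by -0.60, -0.87 and -1.02, with 3 probes in close accord.

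Of the 26 small subunit genes, 2 were higher and 10 lower in TO, 2 higher and 17 lower in OT, and 1 higher and 15 lower in WT. Again 26% of all genes tested were higher and 26.3% lower in TO, 36.5% and 31% in OT, and 35.6% and 30.9% in WT. A difference between the subunits was not tested. Mrps22 (chr9:98398184-98398243, minus strand), a mitochondria-specific protein whose mutation in people causes a respiratory chain deficiency, had 11.24, 11.31, 11.27 and 11.18 in TO-d, against 11.89, 11.81, 11.93 and 12.23 in TO-p. It had 11.16, 11.22, 11.01 and 11.13 in OT-d, against 12.11, 12.02, 11.81 and 11.89 in OT-p. In WT-d it had 10.81, 10.87, 11.00 and 10.97, against 11.95, 11.79, 11.98 and 11.72 in WT-p. The media were fully apart in each line, at changes of -0.66, -0.85 and -0.99 (SE 0.08, 0.08 and 0.09). Mrps5, with a bacterial counterpart, changed by -0.53, -0.64 and -0.58, and Mrps35 by -0.35, -0.59 and -0.72.

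The 3 Mrps18 genes encode relatives of 1 bacterial protein that sit at different places, Mrps18a in the large subunit and the other two in the small one. Mrps18a changed by -0.54, -0.87 and -0.54 in TO, OT and WT, and Mrps18b by -0.39, -0.62 and -0.33, all past the threshold, though a dimmer Mrps18b probe changed by 0.04 in WT. Mrps18c changed by 0.17 in TO (adjusted p = 0.064), -0.29 in OT (adjusted p = 0.0021) and -0.11 in WT (adjusted p = 0.24). Mrps12, at the decoding site of the small subunit, changed by 0.24 in TO (adjusted p = 0.015), 0.14 in OT (adjusted p = 0.12) and -0.10 in WT (adjusted p = 0.32). The call of Mrps12 in TO was lost without TO-p replicate 2. Mrps36 changed by -0.16, -0.35 and -0.08, of which the first 2 were called. The TO call of Mrps36 was made in 10 of 15 settings, with adjusted p up to 0.647.

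A few genes rose in differentiation medium, and each did so in only some of the lines by the same test. Mrpl43 (chr19:45058797-45058856, minus strand), a mitochondria-specific protein of the large subunit, had 14.63, 14.40, 14.46 and 14.50 in TO-d, against 13.91, 13.86, 14.05 and 14.10 in TO-p. The groups did not overlap, at a change of 0.56 in TO (SE 0.08, adjusted p = 4.33e-06), beside 0.24 in OT (adjusted p = 0.0087) and 0.14 in WT. Mrpl24, which lines the exit of the tunnel, changed by 0.60 in OT, 0.41 in WT and -0.08 in TO. Mrps14 changed by 0.48 in OT, and Mrps34 by 0.39 in TO.

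**Figure D2:**
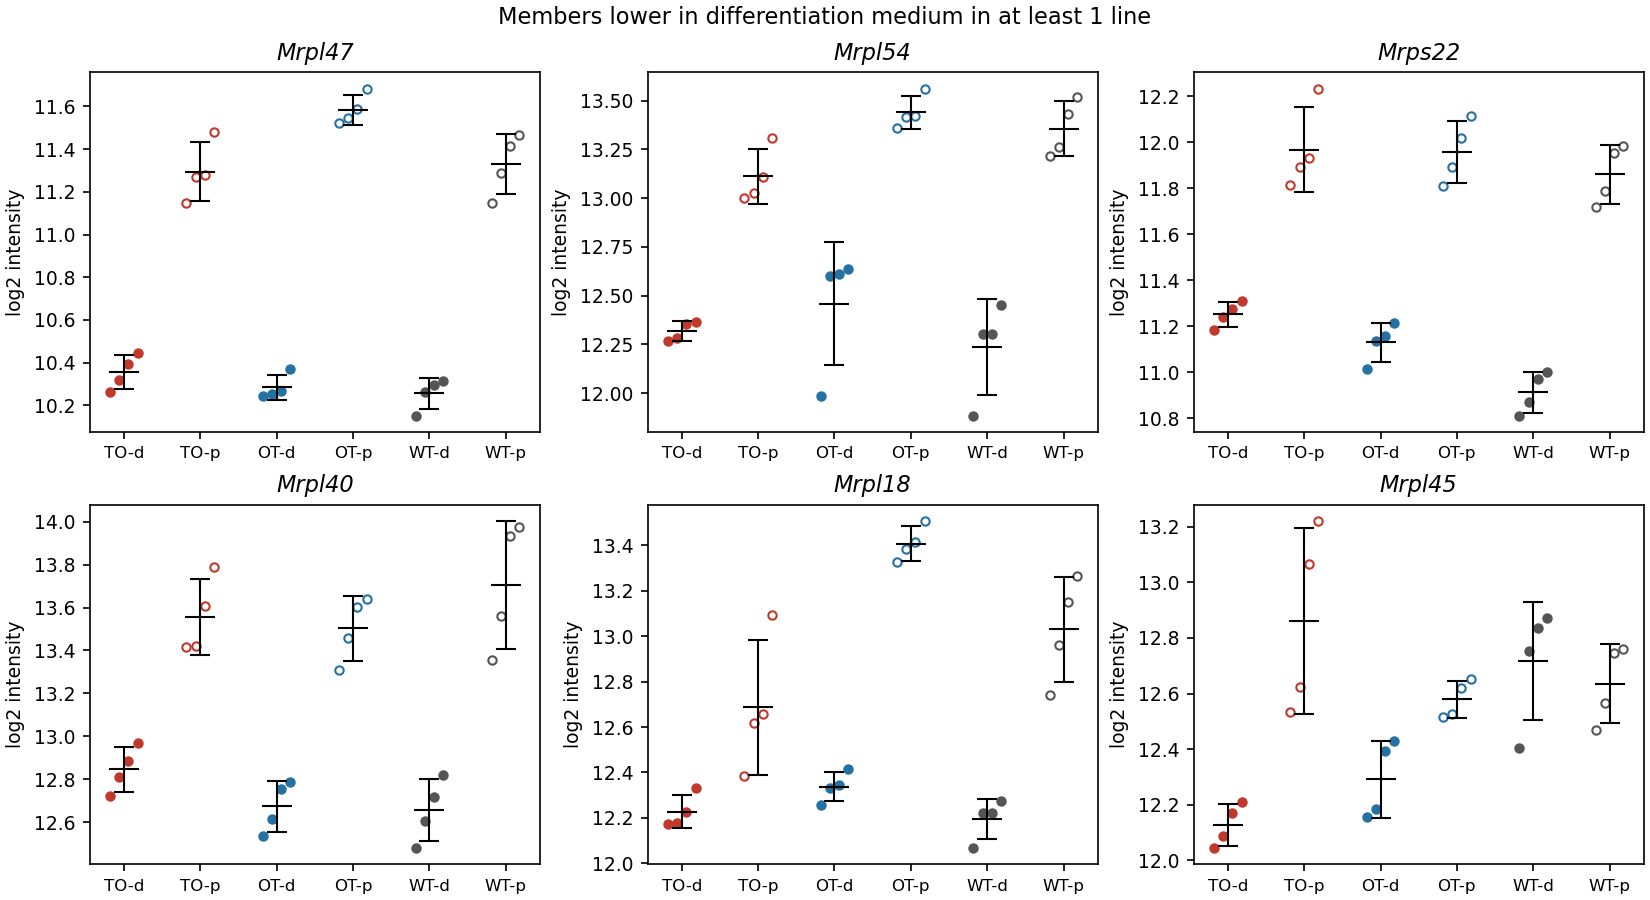
Normalized log2 intensity (y axis) of 6 genes in the 6 groups (x axis), with 1 point per sample in order of value, filled for differentiation medium, and a bar for mean ± SD. In Mrpl47, Mrpl54, Mrps22, Mrpl40 and Mrpl18 all samples in differentiation medium lie below those in proliferation medium of the same line, while Mrpl45 falls in TO and OT and not in WT.

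Mrpl46 and Mrps11 are the only pair of the 75 genes with probes within 100 kb of each other, at 7282 bases on chromosome 7, on opposite strands. Mrpl46 encodes a protein of the central protuberance and Mrps11 one of the small subunit platform. Mrpl46 changed by -0.42, -0.76 and -0.70 in TO, OT and WT, and Mrps11 by -0.35, -0.90 and -0.71. Both were called in all 3 lines.

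Other genes of mitochondrial gene expression were taken from lists with the counts that follow. Beside them, 26% of all genes tested were higher and 26.3% lower in TO, 36.5% and 31% in OT, and 35.6% and 30.9% in WT. Of 20 mitochondrial aminoacyl-tRNA synthetases and related amidotransferase genes, 0 were higher and 9 lower in TO, 2 higher and 11 lower in OT, and 1 higher and 13 lower in WT. Tars2, which charges the threonine tRNA, changed by -0.96, -1.32 and -1.19, and Sars2, its counterpart for serine, by -1.09, -1.03 and -1.33. Of 15 mitochondrial translation factors 0 were higher and 6 lower in TO, 3 higher and 8 lower in OT, and 4 higher and 9 lower in WT. Gfm1, the factor that moves the ribosome along the message, changed by -1.48 in OT and -0.96 in WT, while Oxa1l, the insertase that receives the new chains, changed by 1.03 in WT. Of 28 genes of ribosome assembly and rRNA modification 6 were higher and 6 lower in TO, 7 higher and 12 lower in OT, and 6 higher and 12 lower in WT. Of 25 genes of mitochondrial DNA expression 4 were higher and 8 lower in TO, 5 higher and 16 lower in OT, and 7 higher and 10 lower in WT. In this last list Nrf1 changed by -0.89 in OT, and Ppargc1b, a coactivator of mitochondrial genes, by -0.46, -1.67 and -0.79 in TO, OT and WT. Of 7 subunits of the mitochondrial ribosome with other names, 1 was higher and 4 lower in TO, 1 higher and 5 lower in OT, and 1 higher and 3 lower in WT. Chchd1, a protein of the small subunit, changed by -0.71 in TO, -0.37 in OT and -0.20 in WT.

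Some markers of other cell types also moved with the medium. Over 5 tested glia markers the mean log2 level lay between 7.34 and 7.51 in TO-d against 7.19 to 7.36 in TO-p, between 7.56 and 7.74 in OT-d against 7.13 to 7.38 in OT-p, and between 7.76 and 7.88 in WT-d against 7.36 to 7.48 in WT-p. Of those 5, 1, 2 and 2 were higher and 1 was lower in TO, OT and WT. Of 4 tested fibroblast markers 1, 1 and 2 were higher and 1 was lower in each line, and of 4 blood and endothelium markers 0, 1 and 3 were higher. Of all genes tested, 26%, 36.5% and 35.6% were higher and 26.3%, 31% and 30.9% lower in TO, OT and WT. Lists of 4 or 5 genes are too small to set their counts apart from these shares. The part of these cell types in the fall of the mitochondrial ribosomal genes was not tested. In bulk RNA, fewer cells of a type and less RNA per cell cannot be told apart.

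The promoters of genes that moved together are shown for 4 of the 25 genes that fell in all 3 lines, 3 with at least 1 of the cores below and Mrpl47 with none, and for Mrpl32, which separated TO from OT. They come from RefSeq on build GRCm38.p6, each with 250 bases before and 50 after a transcript start, read 5′ to 3′ on the strand of the gene. Of the 75 genes 66 matched, with 72 windows, and Mrps28 was not among them. Capitals mark, on either strand, CCGGAAG (the core of ETS factor sites, reverse complement CTTCCGG), GCATGCGC (the core of the NRF1 site, reverse complement GCGCATGC) and AAGATGGC (a YY1 core, reverse complement GCCATCTT).
Mrpl27 (chr11:94653541-94653840, plus strand): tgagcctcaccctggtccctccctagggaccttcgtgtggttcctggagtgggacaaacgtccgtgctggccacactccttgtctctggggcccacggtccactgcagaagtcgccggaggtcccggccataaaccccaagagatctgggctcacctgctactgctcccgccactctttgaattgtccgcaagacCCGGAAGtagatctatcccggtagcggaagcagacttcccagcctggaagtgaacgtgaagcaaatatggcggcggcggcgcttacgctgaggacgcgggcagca
Mrps22 (chr9:98601630-98601929, minus strand): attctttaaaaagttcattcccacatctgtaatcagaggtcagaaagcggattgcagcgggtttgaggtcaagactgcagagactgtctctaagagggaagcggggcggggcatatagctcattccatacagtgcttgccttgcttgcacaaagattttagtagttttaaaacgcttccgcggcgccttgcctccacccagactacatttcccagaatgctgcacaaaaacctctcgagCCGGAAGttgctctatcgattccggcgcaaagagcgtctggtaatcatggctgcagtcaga
Mrps18a (chr17:46110754-46111053, plus strand): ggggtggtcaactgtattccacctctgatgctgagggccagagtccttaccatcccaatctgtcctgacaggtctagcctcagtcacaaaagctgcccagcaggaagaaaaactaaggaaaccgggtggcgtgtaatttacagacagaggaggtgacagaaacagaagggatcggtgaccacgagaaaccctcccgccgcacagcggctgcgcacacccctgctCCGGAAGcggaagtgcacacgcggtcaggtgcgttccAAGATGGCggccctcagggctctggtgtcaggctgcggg
Mrpl47 (chr3:32736706-32737005, minus strand): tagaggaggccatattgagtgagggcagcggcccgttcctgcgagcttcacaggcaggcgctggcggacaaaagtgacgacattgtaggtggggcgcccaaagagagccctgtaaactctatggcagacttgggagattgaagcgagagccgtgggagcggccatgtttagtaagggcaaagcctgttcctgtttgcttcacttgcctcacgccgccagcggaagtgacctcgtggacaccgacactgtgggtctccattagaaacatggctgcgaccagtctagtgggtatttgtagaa
Mrpl32 (chr13:14612988-14613287, minus strand): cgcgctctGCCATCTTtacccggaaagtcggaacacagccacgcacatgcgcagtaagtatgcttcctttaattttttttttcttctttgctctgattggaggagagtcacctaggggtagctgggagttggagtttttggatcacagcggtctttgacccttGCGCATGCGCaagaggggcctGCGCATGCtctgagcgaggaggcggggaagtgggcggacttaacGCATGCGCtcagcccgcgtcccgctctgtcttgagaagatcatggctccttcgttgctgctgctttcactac
In Mrpl32 the NRF1 letters occur in 3 places, the first of which reads the same on both strands and so counts as 2 overlapping matches, and the YY1 letters lie at position -242 from the start. The ETS core stood in 33.3% of the 72 windows, against 8.86% of 32851 promoters of all genes. The NRF1 core stood in 11.1% of the windows, against 2.71% of all promoters, and the YY1 core in 15.3%, against 2.75%. The E-box CACGTG, to which Myc binds, was in 9.72% of the windows, against 7.15% of all promoters, and CCAAT was in 40.3%, against 37.4%. At least 1 of the ETS, NRF1 and YY1 cores was in 48.6% of the windows, against 13.3% of all promoters. Of the 25 genes that fell in all 3 lines, 19 had a promoter here, of which 10 held at least 1 of these 3 cores and 9 held none, among them Mrpl40, Mrpl12 and Mrpl47. These are matches of letters and were not linked to binding.

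The second question was whether the answer to the medium differed between the lines, tested as a difference of differences. In TO the change with the medium was higher, that is less of a fall or more of a rise, than in OT for 22 of the 75 genes and lower for 5, against 16.7% and 23.4% of all genes. Set against WT, it was higher in TO for 21 genes and lower for 9, against 17% and 19.1% of all genes. In OT it was higher than in WT for 9 genes and lower for 16, against 20.6% and 14.2% of all genes. The median difference was 0.19 for TO against OT and 0.17 for TO against WT, beside -0.04 and -0.04 for all genes, and -0.03 for OT against WT. These comparisons share their TO, OT or WT samples. The 21 genes of TO against WT became 9 without TO-p replicate 2, 10 without WT-p replicate 1 or 3, and 12 without TO-d replicate 1 or WT-d replicate 4. They were 17 beside 13 lower with Feature Extraction's processed signals, and 42 beside 1 lower with loess alone, with the median of all genes at -0.128 and 0.144 in these settings. For OT against WT the counts were 5 higher and 18 lower with the processed signals and 11 higher and 0 lower with loess alone, which put the median of all genes at 0.107, and 5 higher genes were left without OT-p replicate 2.

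Of the 25 genes that fell in all 3 lines, 22 had a smaller fall in TO than in OT, and the difference was called for 8 of these 25. Compared with WT the fall was smaller in TO for 19, and the difference was called higher in TO for 10 and lower for 1. Mrps11 differed by 0.55 between TO and OT (SE 0.13, adjusted p = 0.0021), and Mrpl18 by 0.76 (SE 0.16, adjusted p = 0.00058). Mrpl16, a protein near the site of peptide bond formation, had 12.13, 12.05, 12.05 and 11.97 in TO-d, against 12.19, 12.05, 12.29 and 12.46 in TO-p. It had 12.20, 12.20, 12.15 and 12.05 in OT-d, against 12.91, 12.76, 12.75 and 12.83 in OT-p. The TO groups overlapped while the OT groups were apart, and the difference of 0.59 was called (SE 0.13, adjusted p = 0.00067). Mrpl16 was lower in TO-p than OT-p by -0.60 (adjusted p = 3.2e-06), while TO-d and OT-d differed by -0.01 (adjusted p = 0.94).

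Mrpl20, with a bacterial counterpart in the large subunit, had 14.04, 14.05, 14.18 and 13.84 in TO-d, against 14.37, 13.87, 14.05 and 14.68 in TO-p. It had 13.51, 13.97, 13.48 and 13.45 in WT-d, against 15.03, 14.28, 15.04 and 14.49 in WT-p. The media overlapped in TO and were apart in WT, where 1 sample of WT-d stood above the other three. The difference was 0.97 (SE 0.23, adjusted p = 0.0024). Mrpl39, specific to mitochondria, differed by 0.73 between TO and WT (SE 0.12, adjusted p = 0.000104), with changes of -0.03 in TO, -0.45 in OT and -0.76 in WT.

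A few genes went against this. Mrpl45 (chr11:97145129-97145188, plus strand), which ties the ribosome to the inner membrane, had 12.09, 12.04, 12.21 and 12.17 in TO-d, against 12.62, 12.53, 13.22 and 13.07 in TO-p. It had 12.41, 12.75, 12.84 and 12.87 in WT-d, against 12.47, 12.57, 12.75 and 12.76 in WT-p. TO-d lay below TO-p in all samples and the WT groups overlapped. The change was -0.70 in TO, -0.34 in OT and 0.07 in WT, and it differed by -0.78 between TO and WT (SE 0.12, adjusted p = 3.21e-05) and by -0.36 between TO and OT (adjusted p = 0.013). A dimmer Mrpl45 probe gave -0.34 and -0.03 for these differences. Mrpl23 changed by -0.58 in TO and 0.00 in OT, a difference of -0.58 (SE 0.10, adjusted p = 0.000114), and Mrps33 by -0.40 and 0.14, a difference of -0.54.

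The third question was how TO differed from both other lines, and 1 gene stood far from the rest. Mrps28 (chr3:8785295-8785354, minus strand), the gene for a small subunit protein, had log2 levels of 16.76, 16.65, 17.10 and 16.89 in TO-p, against 14.71, 14.69, 14.43 and 14.76 in OT-p and 14.33, 14.57, 14.19 and 14.43 in WT-p. It had 15.90, 15.89, 15.79 and 15.53 in TO-d, against 13.58, 13.63, 13.75 and 13.71 in OT-d and 13.71, 13.97, 13.78 and 13.62 in WT-d. All 8 TO samples lay above all 16 samples of the other lines. It was 4.80-fold higher in TO-p than OT-p and 5.70-fold higher than WT-p, and 4.51-fold and 4.12-fold higher in TO-d than OT-d and WT-d. The log2 changes of 2.26, 2.51, 2.17 and 2.04 had SE of 0.09 to 0.11 and adjusted p from 1.09e-15 to 1.93e-12 (limma). The next largest rise of any of the 75 genes in these 4 comparisons was 0.82, 0.42, 0.56 and 0.86, in Mrpl32, Mrps31, Mrpl32 and Mrpl39. Each of the 4 calls held in all 15 settings tried, with log2 changes between 1.90 and 2.57. The array had 1 Mrps28 probe. With the medium Mrps28 changed by -1.11 in TO, -1.02 in OT and -0.64 in WT, the largest fall of the 75 genes in TO. It was the 1 gene of the 25 whose fall was called larger in TO than WT, by a difference of -0.47 (SE 0.14, adjusted p = 0.013), called in 21 of 23 settings and lost, for example, without TO-d replicate 4.

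**Figure D3:**
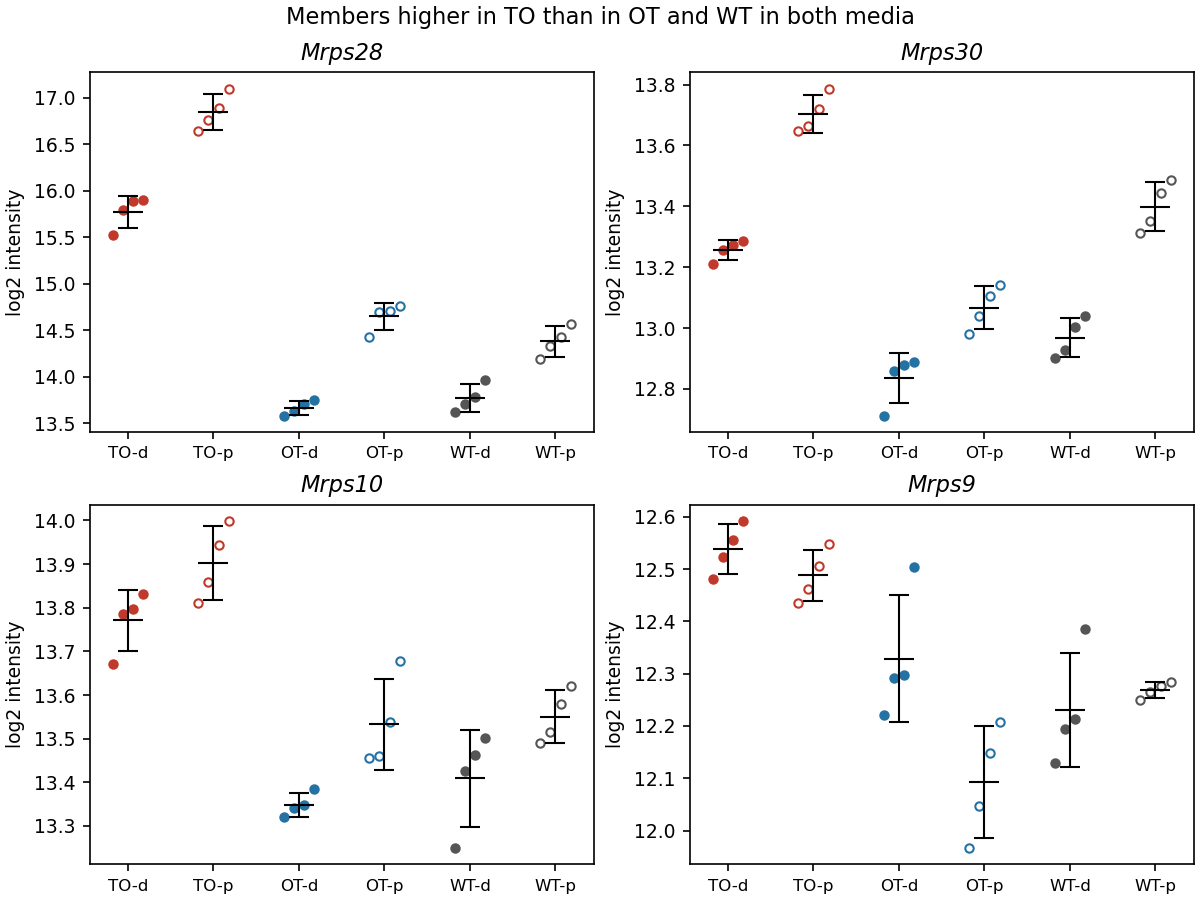
Normalized log2 intensity (y axis) of the 4 genes called higher in TO than in OT and WT in both media, in the 6 groups (x axis), with 1 point per sample in order of value, filled for differentiation medium, and a bar for mean ± SD. Mrps28 lies between 15.53 and 17.10 in TO, against 13.58 to 14.76 in OT and 13.62 to 14.57 in WT, a wider distance than for Mrps30, Mrps10 and Mrps9.

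The genes beside Mrps28 on chromosome 3 did not show the same change in all 4 comparisons. Within 2 Mb of its probe lay probes of 24 other gene names, of which 12 were tested. Of these 12, 5 were higher and 5 lower in TO-p than OT-p, 1 higher and 4 lower in TO-d than OT-d, 3 higher and 2 lower in TO-p than WT-p, and 2 higher and 2 lower in TO-d than WT-d. Of all genes tested, 29.9% were higher and 25.9% lower in TO-p than OT-p, and 18.6% and 21.3% in TO-d than OT-d. Against WT the shares were 18.7% and 15.5% for TO-p, and 22.6% and 23.9% for TO-d. A set of 12 genes is too small to set its counts apart from these shares. Tpd52, a gene of vesicle traffic with its probe 128 kb away, changed by 1.80 and 1.02 in TO-p against OT-p and WT-p, and by 1.25 and 0.15 in TO-d against OT-d and WT-d. The last of these was not called (adjusted p = 0.35). Stmn2, a neuronal microtubule gene on the other side at -241 kb, changed by 1.15, 0.25, -0.40 and 0.15 in the same order.

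**Figure D4:**
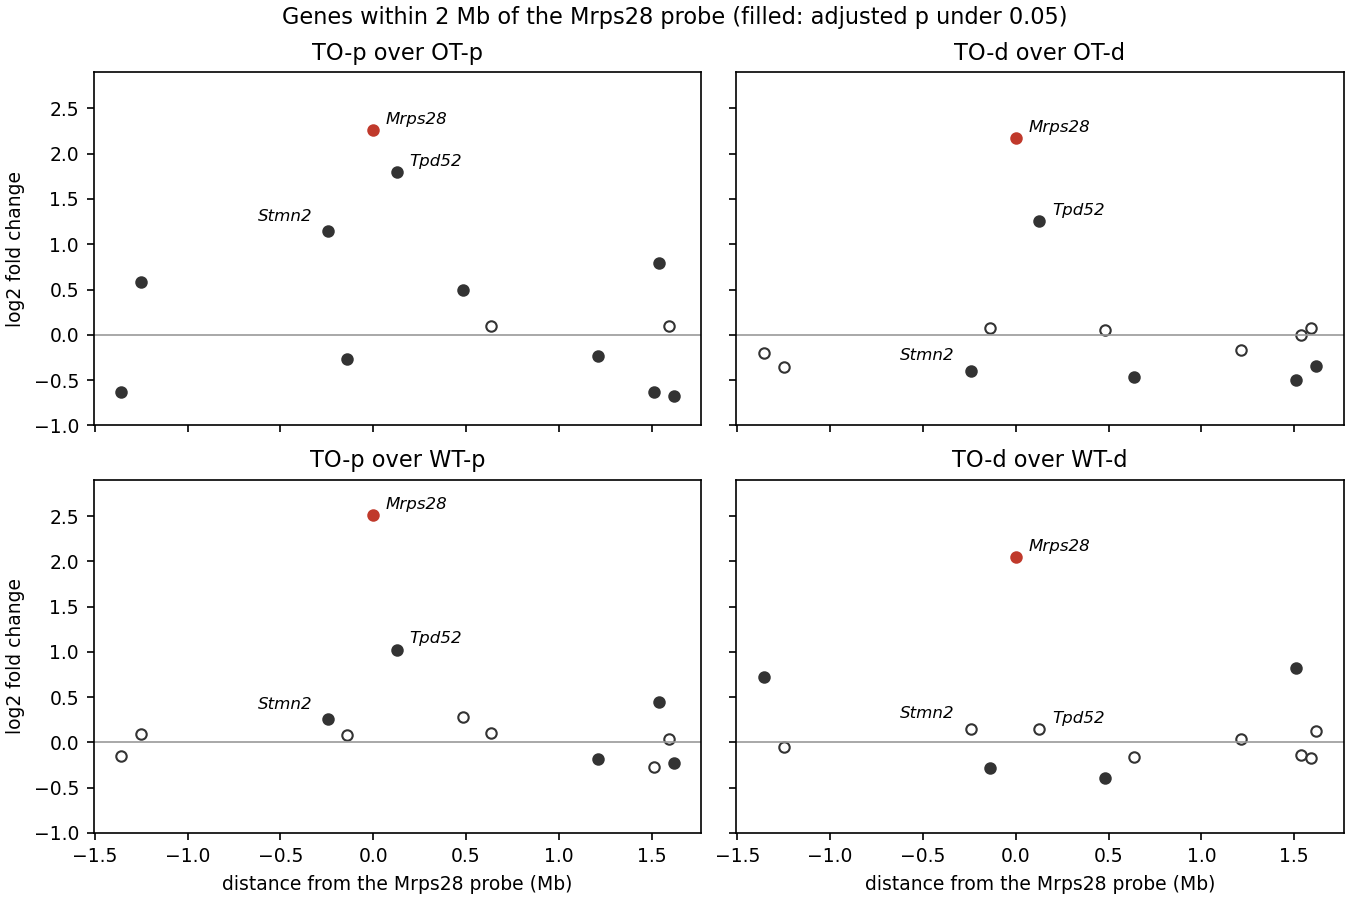
Fitted log2 fold change (y axis) of the genes tested within 2 Mb of the Mrps28 probe, against distance from it in Mb (x axis), in the 4 comparisons of TO with OT and WT, filled where called. Mrps28, in red, lies at 2.04 to 2.51 in each panel, and Tpd52, 128 kb away, lies at 0.15 to 1.80.

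Called higher in TO in all 4 comparisons were 4 of the 75 genes, 5.33%, and lower in all 4 were 0, against 4.02% and 2.75% of all genes, so that neither share was far from that of all genes. Beside Mrps28 these were Mrps30, Mrps10 and Mrps9. Mrps30 (chr13:119499677-119499736, minus strand), a protein of the large subunit in spite of its name, had 13.72, 13.65, 13.79 and 13.66 in TO-p, against 13.10, 12.98, 13.14 and 13.04 in OT-p and 13.44, 13.31, 13.49 and 13.35 in WT-p. It had 13.26, 13.27, 13.21 and 13.29 in TO-d, against 12.86, 12.89, 12.88 and 12.71 in OT-d and 12.93, 13.00, 12.90 and 13.04 in WT-d. Within a medium the TO samples were above all others. The changes were 0.61 and 0.29 in TO-p against OT-p and WT-p, and 0.44 and 0.30 in TO-d against OT-d and WT-d. Mrps30 was also the only gene called in all 9 comparisons between 2 groups, since it was lower in OT than in WT and fell with the medium in every line.

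Mrps10 (chr17:46841695-46841754, plus strand), a protein of the head of the small subunit, had 13.86, 13.94, 14.00 and 13.81 in TO-p, against 13.68, 13.54, 13.46 and 13.46 in OT-p and 13.51, 13.58, 13.49 and 13.62 in WT-p. The TO-p samples were above all of the other lines, at changes of 0.38 and 0.34. In TO-d Mrps10 was higher by 0.43 than OT-d and by 0.37 than WT-d. Mrps9, also of the head, changed by 0.39 and 0.23 in TO-p against OT-p and WT-p, and by 0.22 and 0.30 in TO-d against OT-d and WT-d, and its samples in TO-d and OT-d overlapped. Another Mrps9 probe, dimmer, changed by 0.05 and -0.07 in TO-d against OT-d and WT-d.

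TO-p differed from OT-p with 14 of the 75 genes higher and 23 lower, against 29.9% and 25.9% of all genes, and with a median of -0.10, beside 0.02 for all genes. Mrpl32 (chr13:14402753-14402812, minus strand), whose maturation by the m-AAA protease is a step in ribosome assembly, had 10.72, 11.12, 11.16 and 11.03 in TO-p, against 10.39, 10.20, 10.19 and 10.17 in OT-p. The groups did not overlap, and the change was 0.82 (SE 0.09, adjusted p = 1.02e-07). WT-p, with 10.75, 10.85, 10.40 and 10.73, lay between the other lines. Mrps26 had 13.16, 12.81, 12.80 and 13.35 in TO-p, against 13.73, 13.65, 13.74 and 13.83 in OT-p, at a change of -0.74 (SE 0.10, adjusted p = 2.72e-06). Mrpl18 changed by -0.75, Mrpl16 by -0.60, Mrpl11, at the base of the stalk, by -0.59, Mrps7 by -0.53 and Mrps18c by -0.51. Mrpl18, Mrps26, Mrps7 and Mrps18c fell on each of their probes. Mrps25 and Mrps2, called at -0.51 and -0.50, did not, with -0.03 and 0.00 on their dimmest probes. Rises beside those named were 0.56 in Mrpl55 and 0.47 in Mrps14, of which Mrps14 had 1 sample of TO-p above the other three.

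In differentiation medium the balance between TO and OT was the reverse, with 20 genes higher and 6 lower in TO-d than OT-d, against 18.6% and 21.3% of all genes, and a median of 0.11, beside -0.02. With loess alone these counts were 24 and 2, and 12 genes were higher without TO-d replicate 1. Of the 26 small subunit genes 8 were called, all higher. Of the 48 large subunit genes 17 were called, 11 higher and 6 lower. Whether the subunits differed here was not tested. Mrpl24 (chr3:88009142-88009201, plus strand) had 11.65, 11.72, 11.78 and 11.74 in TO-d, against 12.42, 12.52, 12.82 and 12.53 in OT-d and 12.27, 12.40, 12.35 and 12.48 in WT-d. TO-d lay below both other groups without overlap, at -0.90 against OT-d and -0.67 against WT-d (SE 0.10 and 0.11, adjusted p = 2.46e-07 and 3.22e-05). Mrpl32 was higher in TO-d than OT-d by 0.56, Mrpl4 by 0.45, Mrps34 by 0.32 and Mrps36 by 0.31, and Mrpl50 was lower by -0.57.

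Against WT-p, TO-p had 9 genes higher and 14 lower, against 18.7% and 15.5% of all genes, with a median of -0.04, beside 0.004. The 14 lower genes became 7 without TO-p replicate 1 and 3 without WT-p replicate 3, and with loess alone the counts were 3 higher and 19 lower. Mrps31, specific to mitochondria, had 13.59, 13.64, 13.64 and 13.48 in TO-p, against 13.10, 13.06, 13.31 and 13.09 in WT-p. The groups were apart, at a change of 0.42 (SE 0.06, adjusted p = 1.53e-05). Mrpl23, beside the tunnel exit, had 14.39, 14.32, 14.43 and 14.15 in TO-p, against 14.69, 14.83, 14.73 and 14.72 in WT-p, at a change of -0.40 (SE 0.07, adjusted p = 8.1e-05).

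Against WT-d, TO-d had 25 genes higher and 12 lower, against 22.6% and 23.9% of all genes, with a median of 0.12, beside -0.03. The counts were 20 and 15 with the processed signals, and 38 and 4 with loess alone, which moved the median of all genes to 0.11. Mrpl39 (chr16:84600969-84606433, minus strand) had 11.89, 11.89, 11.92 and 11.94 in TO-d, against 10.97, 11.21, 11.12 and 10.95 in WT-d. The groups were far apart for this set, at a change of 0.86 (SE 0.09, adjusted p = 1.78e-07), and OT-d was higher than WT-d by 0.69 as well. Mrpl19 rose by 0.86, Mrps25 by 0.56, Mrpl12 by 0.50 and Mrps6 by 0.44. Mrpl23 was lower by -0.74, Mrpl14, on the face that meets the small subunit, by -0.62 and Mrpl45 by -0.57. Of the aminoacyl-tRNA synthetase list 13 of 20 were higher and 1 lower, Cars2 by 1.30, and Lrpprc, which stabilizes mitochondrial messages, rose by 1.03.

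OT served as the comparison for a fusion without detectable Cbl binding, and it was itself set against WT. OT-p had 21 genes higher and 12 lower than WT-p, against 20.1% and 24.1% of all genes, and OT-d had 22 higher and 19 lower than WT-d, against 26.6% and 25.1%. The medians were 0.07 and 0.03, beside -0.02 and -0.01. With loess alone the counts were 9 and 13 in proliferation medium and 23 and 8 in differentiation medium. Mrpl23 had 14.09, 14.13, 14.07 and 13.95 in OT-p, against 14.69, 14.83, 14.73 and 14.72 in WT-p, at a change of -0.70 (SE 0.06, adjusted p = 1.44e-08). In OT-d it was lower than WT-d by -0.45, so that Mrpl23 was lower in both transfected lines than in WT in both media. Mrpl14 was lower in OT by -0.41 and -0.74, and Mrpl32 by -0.51 and -0.71, in proliferation and differentiation medium. Mrps14 was lower in OT-p by -0.59, and Mrpl50 higher in OT-d by 0.60. Called in 1 direction against both other lines in both media were Mrpl11, Mrpl50 and Mrpl52, higher in OT, and Mrpl30, Mrpl32 and Mrps30, lower in OT, which is 4% of the genes in each direction, against 4.27% and 5.42% of all genes. The call of Mrpl30 in OT-p against WT-p, at -0.22, was made in 9 of 15 settings, with adjusted p (limma) up to 0.154.

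**Figure D5:**
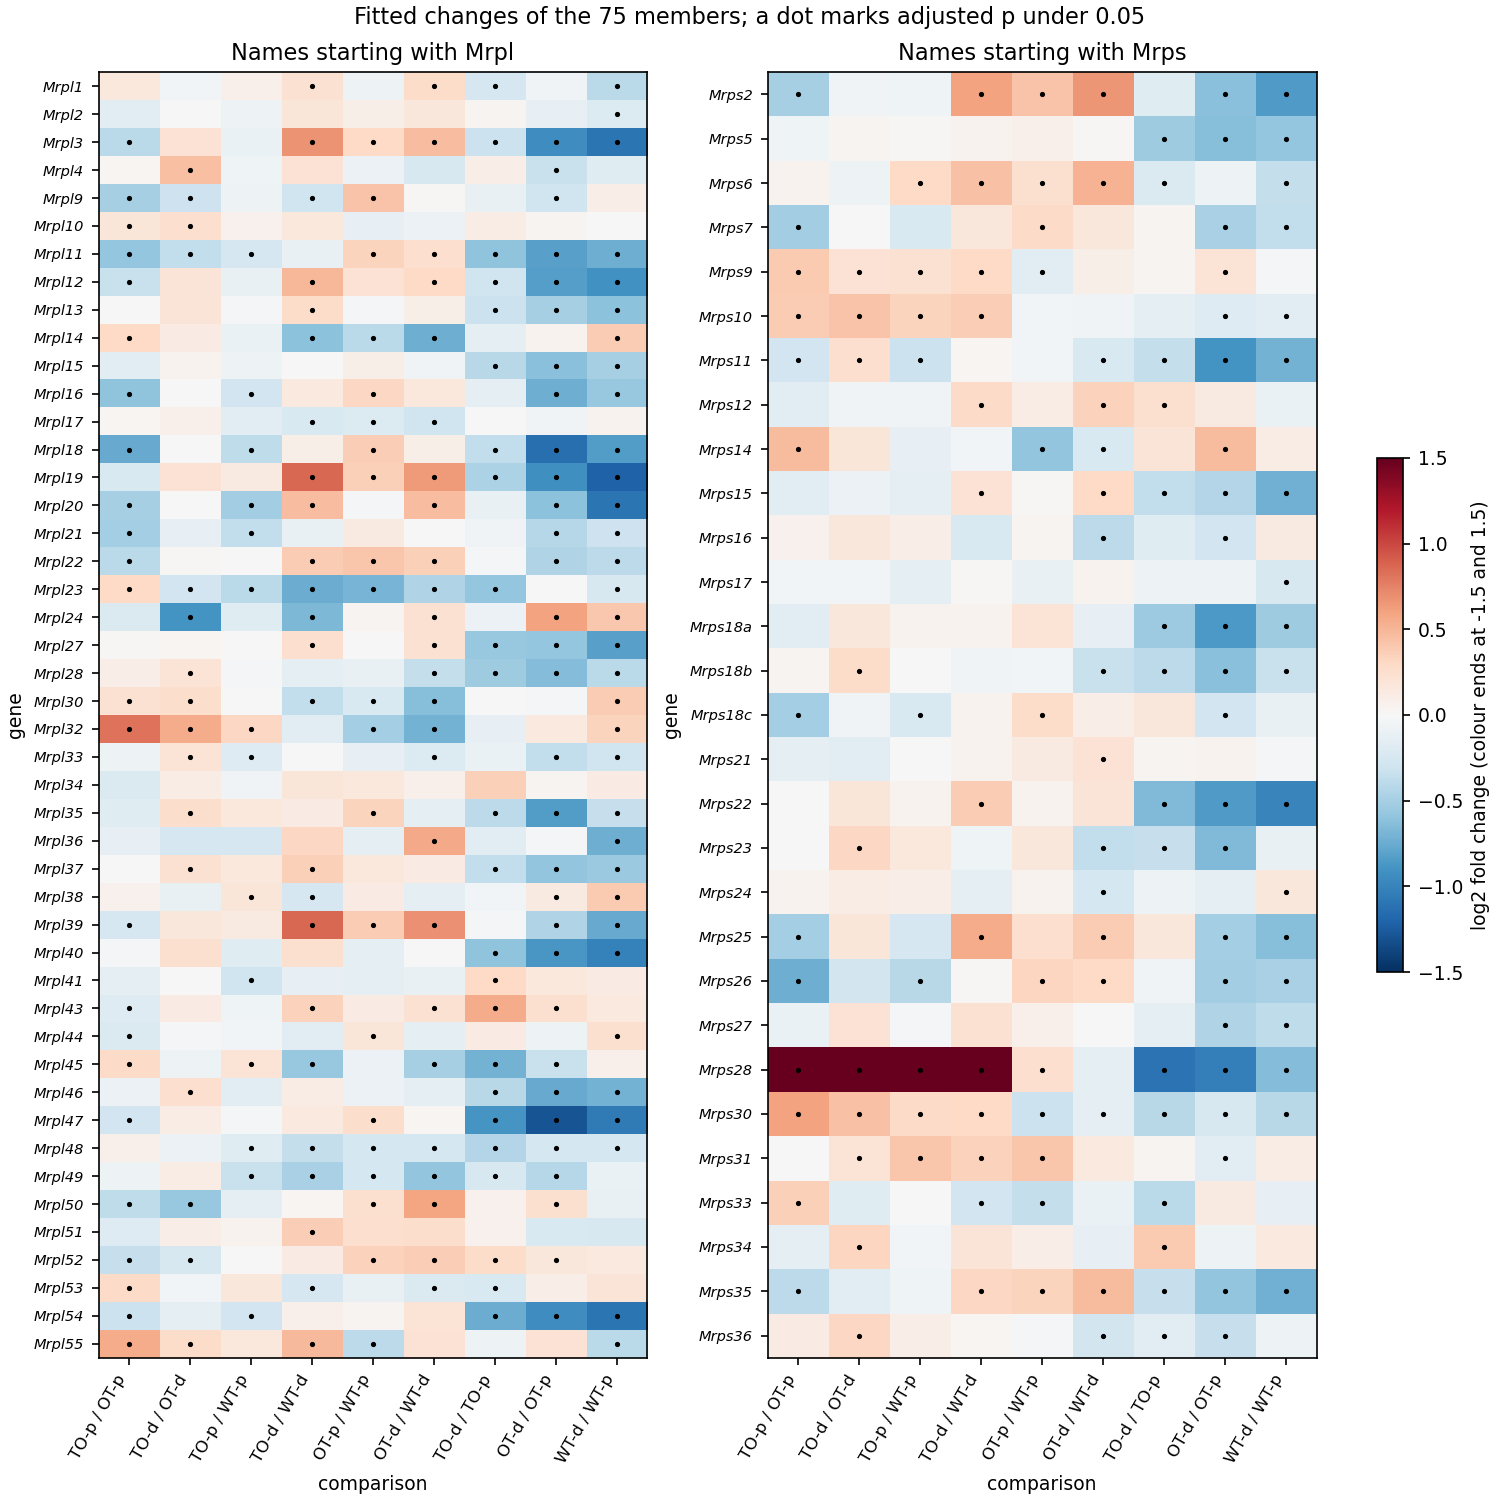
Fitted log2 fold change (colour, red for higher in the group named first) of the 75 genes (y axis) in the 9 comparisons between 2 groups (x axis), with a dot where the adjusted p was under 0.05. The 3 columns at the right, for the medium, are mostly blue, and Mrps28 is the only gene beyond the colour scale, at 2.04 to 2.51 in TO against OT and WT.

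Over the 9 comparisons between 2 groups, Mrpl34 was the only gene called in none, and 8 genes passed a 2-fold change with a call in at least 1. They were Mrps28 and, with the medium only, Mrpl3, Mrpl18, Mrpl19, Mrpl20, Mrpl40, Mrpl47 and Mrpl54. Several probes measured 33 of the 75 genes. For Mrpl3 3 probes agreed, with -0.94, -0.98 and -0.99 in OT-d against OT-p, and a 4th, above background in 1 group only, gave 0.02. Probes of Mrps2, Mrpl49, Mrpl38 and Mrpl35 also differed in sign in at least 1 comparison.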

How the data were processed

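RNA of 24 samples was hybridised, 2 samples per array, to 12 Agilent 2-colour arrays on 3 slides, with 2 Cy5 and 2 Cy3 samples in each group. The deposited values are spot intensity readings; the file headers name Agilent Feature Extraction, version 10.5.1.1, as their source and give probe positions on mm8. The deposited series table holds the authors' processed intensity per sample, with scale and centring not given in the sources used here and column medians between 102 and 108, and it served as an alternative. No deposited log2 values were used: log2 levels were computed here from the deposited intensities.

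In limma 3.58.1 (R 4.3.3, statmod 1.5.0), outlier-marked spots were left out (0.492% of values), and the signals were corrected by normexp with an offset of 50, loess within arrays and Aquantile between arrays. Groups were fitted with the dye as covariate and the array as a random block (correlation 0.443). Genes well above background throughout at least 1 group were tested, 16315 in all, and a call needed p under 0.05 after Benjamini-Hochberg adjustment. Scripts were tested on simulated data. Only in TO-d against WT-d did the deviations of every same-numbered pair correlate over 0.1. Same-numbered samples share the dye, so this cannot show that the numbers pair samples.

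The genes and the other lists were chosen with earlier results of these data known. Named for a comparison were up to 10 called, non-overlapping genes per direction with the largest change (5 for differences of the medium response), genes called in all comparisons of a pattern, Mrps28 with its neighbours, Mrpl12, Mrps12, the Mrps18 genes and Mrps36, and up to 4 genes per other list. Alternatives were the processed signals, the series table, loess alone, no filter, slide or replicate number as a block, the dimmest probe, and leaving out each sample. Arrays give no counts, and their number limits the precision.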

Additional observations from a re-analysis of the deposited data

Results flagged for a closer look

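Of 226 sets of 4 samples examined among the named genes, 11 (4.87%) held a sample far from the other three, and chance flags about 1 in 20. Standing above the others were Mrpl20 in WT-d replicate 2 (13.97, the others up to 13.51), Mrpl32 in OT-p replicate 1 (10.39, the others up to 10.20), Mrps14 in TO-p replicate 1 (11.60, the others up to 11.30) and Mrps18b in WT-d replicate 2 (9.49, the others up to 9.36). Standing below were Mrpl32 in WT-d replicate 2 (10.75, the others from 11.14), Mrpl38 in WT-d replicate 2 (11.94, the others from 12.18) and Mrpl54 in OT-d replicate 3 (11.99, the others from 12.60). So did Mrps2 in OT-d replicate 3 (10.66, the others from 11.01), Mrps18b in OT-d replicate 1 (8.95, the others from 9.15), Mrps11 in OT-d replicate 4 (9.66, the others from 9.73) and Mrps30 in OT-d replicate 4 (12.71, the others from 12.86). WT-d replicate 2 accounts for 4 of the 11.

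The change with the medium differed between lines for 30 named values, by the test of the difference itself (limma, adjusted p under 0.05). Higher in TO than in OT were Mrpl18 (0.76), Mrps25 (0.69), Mrpl3 (0.62), Mrpl16 (0.59) and Mrps11 (0.55), and lower were Mrpl53 (-0.32), Mrpl45 (-0.36), Mrps33 (-0.54), Mrpl23 (-0.58) and Mrpl24 (-0.68). The Mrpl53 difference was called in 11 of 23 settings, with adjusted p up to 0.294. Higher in TO than in WT were Mrpl20 (0.97), Mrps25 (0.81), Mrpl3 (0.77), Mrpl39 (0.73) and Mrpl19 (0.73), and lower were Mrpl32 (-0.46), Mrps28 (-0.47), Mrpl24 (-0.49), Mrpl14 (-0.52) and Mrpl45 (-0.78). Higher in OT than in WT were Mrpl36 (0.70), Mrpl55 (0.61), Mrps14 (0.37), Mrpl50 (0.35) and Mrpl1 (0.35), and lower were Mrpl45 (-0.41), Mrpl30 (-0.41), Mrps16 (-0.43), Mrpl35 (-0.49) and Mrps23 (-0.54). The dimmer Mrps25 probe gave 0.15 for TO against OT and 0.30 for TO against WT.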

How the results depend on the processing

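All 24 counts of higher and lower genes stayed within 1.5 times their value with no filter on dim probes, with slide as a covariate and with the replicate block. Feature Extraction's processed signals gave 13 higher genes in WT-d against WT-p and 5 higher in the medium response of OT against WT. The series table gave 9 higher in TO-d against TO-p and 13 in WT-d against WT-p. Loess alone gave 2 lower in TO-d against OT-d, 3 higher in TO-p against WT-p, 38 higher and 4 lower in TO-d against WT-d, 9 higher in OT-p against WT-p, 8 lower in OT-d against WT-d, 8 higher and 22 lower in TO-d against TO-p, 2 higher in OT-d against OT-p and 0 higher in WT-d against WT-p. For the medium response it gave 3 lower in TO against OT, 42 higher and 1 lower in TO against WT, and 0 lower in OT against WT. The dimmest probe gave 4 higher in OT-d against OT-p and 5 higher in the medium response of OT against WT. With each sample left out in turn, the lower genes of TO-p against WT-p ranged between 3 and 20, the higher ones of TO-d against TO-p between 3 and 6 and of TO-d against OT-d between 12 and 17, and the higher ones of the medium response between 9 and 26 for TO against WT and between 5 and 12 for OT against WT. The cause was not tested.

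Among the values of named genes, the sign turned with loess alone for Mrpl38 in TO-d against WT-d (0.0018) and Mrpl44 in WT-d against WT-p (-0.022). With the dimmest probe it turned for Mrps2 in TO-p against OT-p (0.0011), TO-d against WT-d (-0.35), OT-p against WT-p (-0.027), OT-d against WT-d (-0.27) and WT-d against WT-p (0.20). It also turned for Mrpl38 in TO-p against WT-p (-0.42) and WT-d against WT-p (-0.71), and for Mrpl49 in TO-d against WT-d (0.19), OT-p against WT-p (0.27) and OT-d against WT-d (0.13). The same held for Mrpl17 in OT-d against WT-d (0.048), Mrpl3 in OT-d against OT-p (0.016) and WT-d against WT-p (0.010), Mrpl44 in WT-d against WT-p (-0.044) and Mrpl35 in the medium response of OT against WT (0.25).

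Same-numbered samples correlated between -0.25 and 0.40, over 0.1 in 18 of 36 pairs. In 1 of 9 comparisons, TO-d against WT-d, all 4 pairs were over 0.1 (0.134 to 0.262), and there the replicate block gave 22 higher and 13 lower genes. Same-numbered samples always share the dye, and some share a slide. Neither was taken out before the correlation, which therefore cannot tell pairing by number from a shared dye or slide. Replicates 1 and 2 were always Cy5, so the replicate block takes up the dye too. Among calls of named genes 1 was lost and 1 gained, and for Mrps28 in TO-p against OT-p it gave 2.26.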
